A study of Mus musculus with 4 samples.

Results

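Erythroid genes were followed in CD31-positive cells of mouse spleen that were sorted by a reporter of Ackr4, an atypical chemokine receptor gene. The set holds 8 genes, Epor, Car2, Alas2, Slc4a1, Sptb, Hba-a1, Ermap and Rhag, chosen by gene name among the 30199 gene names of the array, and they are read by 10 of its 39429 probes. The choice of these genes was made with earlier results of these data known. All cells came from Ackr4GFP/wt mice, in which 1 allele of Ackr4 carries green fluorescent protein (GFP), so both groups share that reporter allele and neither is wild type. ACKR4-positive cells (CD31+ ACKR4-GFP+) were compared with ACKR4-negative cells (CD31+ ACKR4-GFP-), both gated as living single cells without the leukocyte protein CD45. The spleens had been digested, and lysis of red cells and magnetic depletion of CD45+ cells came before the sort. Each sort pooled 2 to 3 mice. There were 2 separate sorts and so 2 arrays per group, and replicate 1 and replicate 2 of each group were taken as sort 1 and sort 2. The comparison asks how CD31-positive spleen cells with the reporter differ from those without it, here for genes of red cell precursors and separately in each sort.

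Red cells arise from erythroid precursors in bone marrow and, in mice, also in the spleen. Erythropoietin acts through its receptor, the product of Epor, to keep these precursors alive, and the transcription factors GATA1 and KLF1 then switch on the genes for haemoglobin, haem synthesis and the red cell membrane. Reticulocytes, the last stage before the mature red cell, still hold globin messenger RNA. The spleen also filters old red cells from the blood, and its cell suspensions are therefore commonly treated to lyse red cells.

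The probes are 60 bases long and their positions are those of the array files, on mm9. The sequences below belong to the probes on which the results turn, the single probes of Epor, Car2, Alas2, Slc4a1 and Hba-a1 and the 3 probes of Ermap, which gave different patterns.
Epor probe: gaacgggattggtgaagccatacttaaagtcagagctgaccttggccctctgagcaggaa
Car2 probe: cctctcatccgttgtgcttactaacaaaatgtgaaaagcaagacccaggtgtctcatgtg
Alas2 probe: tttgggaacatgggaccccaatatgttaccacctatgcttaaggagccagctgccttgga
Slc4a1 probe: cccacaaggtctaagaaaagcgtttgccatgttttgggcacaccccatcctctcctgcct
Hba-a1 probe: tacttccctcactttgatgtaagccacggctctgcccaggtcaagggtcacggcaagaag
Ermap probe A_55_P2153381: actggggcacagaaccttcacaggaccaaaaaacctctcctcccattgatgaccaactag
Ermap probe A_51_P391716: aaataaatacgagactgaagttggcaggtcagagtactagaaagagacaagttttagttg
Ermap probe A_55_P2153382: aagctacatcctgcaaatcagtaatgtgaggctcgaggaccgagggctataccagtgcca
The Epor probe lies at chr9:21763422-21763481 (minus strand), the Car2 probe at chr3:14900206-14900265 (plus strand) and the Alas2 probe at chrX:147004993-147005052 (plus strand). The Slc4a1 probe lies at chr11:102210256-102210315 (minus strand) and the Hba-a1 probe at chr11:32183955-32184014 (plus strand). The 3 Ermap probes lie on the minus strand at chr4:118849093-118849152, chr4:118848540-118848599 and chr4:118859754-118859813, in the order printed. Whether a probe lies in coding sequence or in a UTR was not analysed here, because no annotation on mm9 was used. The Hba-a1 probe and the probe of its near-identical copy Hba-a2 are different sequences, whose longest shared run is 6 bases, but each may also bind the transcript of the other gene, so alpha globin signal cannot be assigned to 1 of the 2 genes.

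Levels below are log2 signal minus the array's 75th percentile, so that 0 equals that percentile, and a probe counts as above background on an array where more than 50% of its 4 spots were well above background. A fold given as "at least" puts a probe not above background at the lowest level above background on that array. Its own level was used where that was higher. These folds belong to this signal scale and are not strict limits, because normexp background correction gave smaller pooled differences for Epor and Sptb. Between 54.9% and 58.3% of probes were above background per array, and no spot of the 8 genes was saturated. Ackr4, the locus that drove the sort, stood at -0.21 and 2.55 in ACKR4-positive cells against -7.53 and -7.50 in ACKR4-negative cells, which checks the labels and is no finding. The endothelial genes Pecam1, which encodes CD31, and Cdh5 were above background on all 4 arrays, with Cdh5 at 4.67 and 4.09 in ACKR4-positive and 5.20 and 4.95 in ACKR4-negative cells. The median signal of the spiked-in control RNA was 2749 and 2902 on the ACKR4-positive arrays and 837 and 3489 on the ACKR4-negative arrays. The low value is that of ACKR4-negative replicate 1, the array on which several erythroid genes below were highest, and its part in those results was not tested.

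Of the 8 genes, 2 fell in ACKR4-positive cells in both sorts, Epor and Car2. Alas2, Slc4a1 and Hba-a1 were 22.7-fold to 28.1-fold lower in ACKR4-positive than in ACKR4-negative cells in sort 1, but not in sort 2, where their differences were above 0. Rhag was above background only on ACKR4-negative replicate 1. Sptb was higher in ACKR4-positive cells in both sorts, and the brightest probe of Ermap differed little. In the limma fit over all genes, 7 of the 8 were tested and Rhag was left out by the filter, which asked for both arrays of at least 1 group above background. The fit, with 2 arrays per group, called 2 of the 7 lower and 0 higher at an adjusted p of 0.05, while over all 17358 tested genes 5.63% were called, 3.72% lower and 1.92% higher. Of the genes with higher means Sptb alone had an unadjusted p under 0.05 in limma (0.0474). With sort as a block, which allows for the sorts' own levels, 2 of the 7 were called lower (8.55% of tested genes) and 1 higher (6.75%). The levels did not overlap between the groups for 4 of the 7, a share near the 44.9% of all tested genes.

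**Figure D1:**
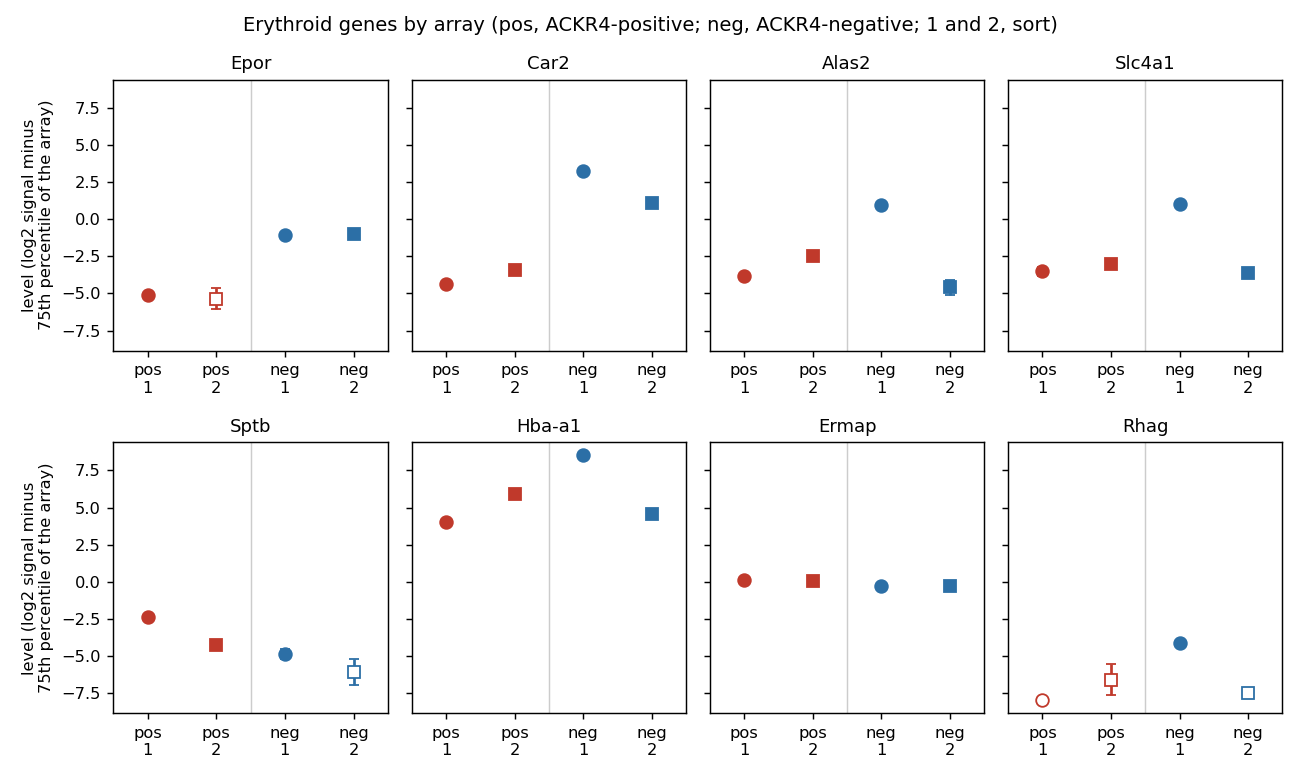
Levels of the 8 erythroid genes (y axis, log2 signal minus the array's 75th percentile) on the 2 ACKR4-positive arrays (red) and the 2 ACKR4-negative arrays (blue), with circles for sort 1 and squares for sort 2. Bars are the SD of the spots of a probe, and open symbols mark arrays on which the probe was not above background. ACKR4-negative replicate 1 is the highest array for Car2, Alas2, Slc4a1, Hba-a1 and Rhag, 5 of the 8 genes.

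Epor encodes the erythropoietin receptor, which red cell precursors carry and which is also known from endothelial cells. Its level was -5.11 and -5.34 on the ACKR4-positive arrays against -1.09 and -1.03 on the ACKR4-negative arrays. The groups stood far apart, and the 2 ACKR4-negative arrays differed by only 0.07 on the log2 scale. Epor fell with a log2 fold change of -4.17 ± 0.27 (SE, n = 2 per group, adjusted p = 0.00870), a 17.9-fold lower signal. With normexp background correction the change was -2.32 (adjusted p = 0.0153). On ACKR4-positive replicate 2 the Epor probe was above background in 1 of 4 spots. By the rule above, the signal in sort 2 was at least 19.5-fold lower in ACKR4-positive cells, beside a measured 16.1-fold in sort 1.

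Car2 encodes carbonic anhydrase 2, the cytosolic enzyme that interconverts carbon dioxide and bicarbonate, abundant in red cells and present in many other cell types. It had levels of -4.37 and -3.39 on the ACKR4-positive arrays against 3.26 and 1.06 on the ACKR4-negative arrays. Both ACKR4-negative arrays were above both ACKR4-positive arrays, and replicate 1 was the higher ACKR4-negative one by 2.20. The fall was -6.04 ± 0.84 (SE, n = 2 per group, adjusted p = 0.0308), with differences of -7.63 in sort 1 and -4.45 in sort 2. It was -4.89 with normexp background correction. With ACKR4-positive replicate 1 left out it was -5.55 and no longer called (adjusted p = 0.0821).

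Alas2 encodes the red cell form of 5-aminolevulinate synthase, the first enzyme of haem synthesis. Its levels were -3.85 and -2.50 in ACKR4-positive cells against 0.96 and -4.60 in ACKR4-negative cells. ACKR4-negative replicate 1 was the highest and ACKR4-negative replicate 2 the lowest of the 4 arrays, so the groups overlapped. The difference was -4.81 in sort 1 and 2.10 in sort 2, and the pooled value of -1.36 ± 1.92 was not called (adjusted p = 0.841). The probe's spots scattered with an SD of 0.059 on ACKR4-negative replicate 1 and of 0.48 on replicate 2, where 3 of 4 spots were well above background, against the 5.56 that separated these arrays.

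Hba-a1 encodes an adult alpha globin chain of haemoglobin. Its raw signal was 15409 and 34886 on the ACKR4-positive arrays against 283652 and 15595 on the ACKR4-negative arrays, which are levels of 4.02 and 5.89 against 8.53 and 4.57. All 4 arrays thus carried alpha globin signal far above background, and ACKR4-negative replicate 1 exceeded ACKR4-negative replicate 2 by 15.5-fold. The difference was -4.51 in sort 1 and 1.31 in sort 2, and the pooled value of -1.60 ± 1.47 was not called (adjusted p = 0.745). The spot SD lay between 0.019 and 0.027 on the 4 arrays.

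Slc4a1 encodes band 3, the anion exchanger of the red cell membrane. Its levels were -3.51 and -3.01 in ACKR4-positive cells against 1.02 and -3.61 in ACKR4-negative cells. The probe was above background on every array, but 3 of the arrays lay within 0.60 of each other and ACKR4-negative replicate 1 stood apart. The difference was -4.53 in sort 1 and 0.60 in sort 2, and the pooled value of -1.97 ± 1.57 was not called (adjusted p = 0.693). Without ACKR4-negative replicate 2 it was called lower (-4.28, adjusted p = 0.0347), and without ACKR4-negative replicate 1 it was 0.35.

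Rhag encodes the Rh-associated glycoprotein, a membrane partner of the Rh blood group proteins. Its probe was above background only on ACKR4-negative replicate 1, at -4.14, against -7.92 and -6.59 on the ACKR4-positive arrays and -7.46 on ACKR4-negative replicate 2, which are not above background and have no order among themselves. In sort 1 the signal was therefore at least 3.71-fold lower in ACKR4-positive cells, and for sort 2 no fold can be given.

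Ermap encodes the erythroblast membrane-associated protein, which carries the Scianna blood group in humans, and its 3 probes disagreed. The brightest, A_55_P2153381, read 0.15 and 0.06 in ACKR4-positive cells against -0.31 and -0.26 in ACKR4-negative cells, a difference of 0.39 ± 0.26 that was not called (adjusted p = 0.614). The probe A_51_P391716 read -5.53 and -5.86 against -2.67 and -6.35, and was not above background on replicate 2 of either group. The probe A_55_P2153382 was above background only on ACKR4-negative replicate 1, at -2.64, so that it was at least 10.5-fold lower in ACKR4-positive cells in sort 1. Both dimmer probes were thus highest on the array that was highest for Alas2, Slc4a1, Hba-a1 and Rhag, while the brightest was not.

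**Figure D2:**
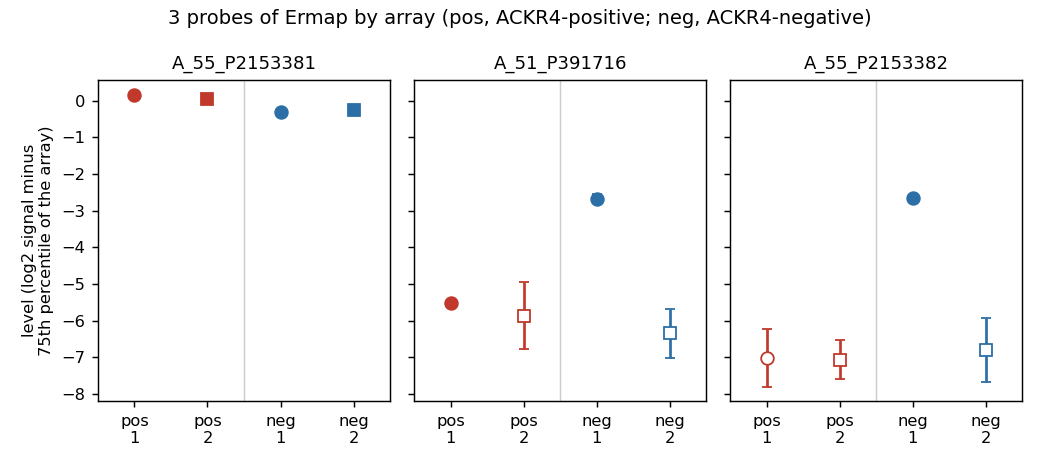
Levels of the 3 Ermap probes (y axis, log2 signal minus the array's 75th percentile) on ACKR4-positive (red) and ACKR4-negative (blue) arrays, with circles for sort 1, squares for sort 2, bars for the SD of the spots and open symbols where the probe was not above background. The brightest probe lies within -0.31 and 0.15 on all arrays, whereas the other 2 are at -2.67 and -2.64 on ACKR4-negative replicate 1 and below -5 elsewhere.

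Sptb encodes beta spectrin of the red cell membrane skeleton, which muscle and brain also make. Its levels were -2.35 and -4.28 in ACKR4-positive cells against -4.86 and -6.09 in ACKR4-negative cells, with ACKR4-negative replicate 2 not above background. It was the 1 gene of the 8 that was at least 2-fold higher in ACKR4-positive cells in both sorts. The rise was 5.71-fold in sort 1 (2.51 on the log2 scale) and at least 2.44-fold in sort 2. The difference of 2.16 ± 0.80 was not called (adjusted p = 0.297), but it was called with sort as a replicate block (2.16 ± 0.26, adjusted p = 0.00626). With normexp background correction it was 0.83 (adjusted p = 0.383).

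Within a sort each group has 1 array, so the differences in a sort, and the difference between sorts, have no test. At least 2-fold lower levels in ACKR4-positive cells were seen for 5 of the 7 tested genes in sort 1, where 10.9% of all tested genes were so, and for 2 of the 7 in sort 2, where 9.76% were. At least 2-fold higher levels were seen for 1 of the 7 tested genes in sort 1 (9.33% of tested genes) and for 3 of the 7 in sort 2 (7.85%). Lower in both sorts, by any size, were 2 of the 7, against 34.5% of tested genes. The median difference of the 8 genes was -4.26 in sort 1 and 0.74 in sort 2. These medians take in Rhag, which was above background on neither array of sort 2. For the 7 tested genes the medians were -4.51 and 0.60, beside 0.00 and 0.05 over all tested genes. Alas2 and Hba-a1 were at least 2-fold lower in sort 1 and at least 2-fold higher in sort 2, as were 0.15% of tested genes, 26 in number. The 2 sorts differed by as much as they did for Alas2 in 0.0403% of tested genes, for Hba-a1 in 0.0576% and for Slc4a1 in 0.0922%. The same share was 1.01% for Car2, 18.3% for Sptb, 54.2% for Epor and 77.9% for the brightest Ermap probe. Because the 8 genes were chosen with earlier results of these data known, the counts and shares of this paragraph are a description only.

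**Figure D3:**
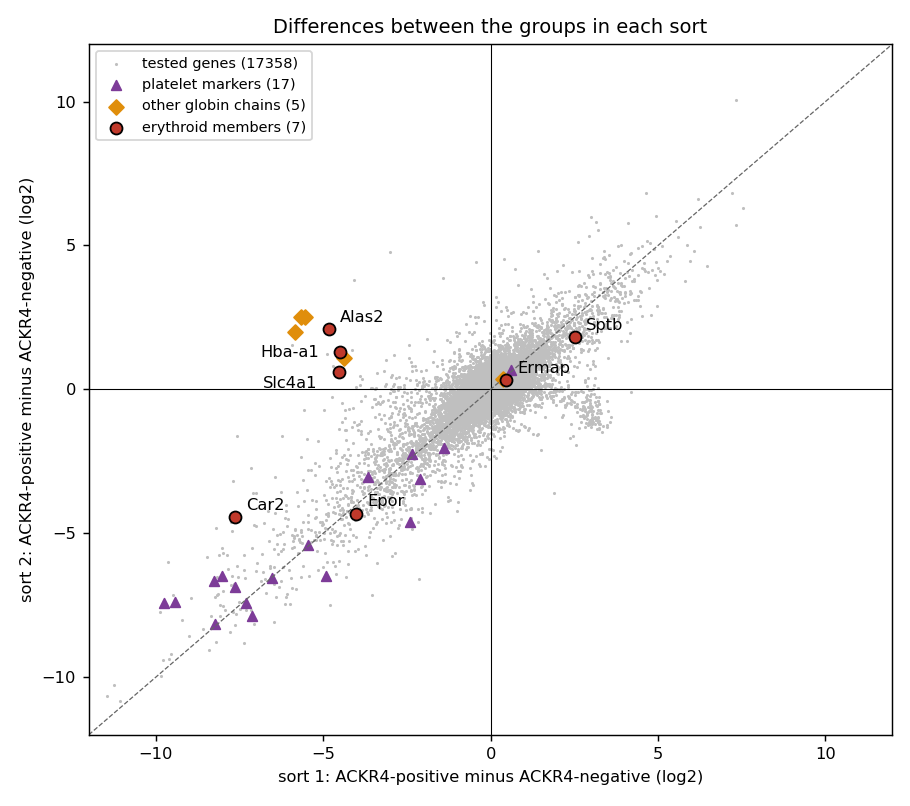
Difference of ACKR4-positive minus ACKR4-negative cells (log2) in sort 1 (x axis) and in sort 2 (y axis) for 17358 tested genes (grey), 7 tested erythroid genes (red), 5 other globin chains (orange diamonds) and 17 platelet markers (purple triangles), with equality of the sorts as a dashed line. Alas2, Slc4a1, Hba-a1 and 4 globin chains lie left of 0 and above 0, while Epor lies near the line and 16 of the 17 platelet markers lie below 0 in both sorts.

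ACKR4-negative replicate 1 exceeded ACKR4-negative replicate 2 by at least 16-fold in 10 tested genes (0.0576%), of which 7 belong to the 8 genes or to the other erythroid lists. They are Alas2 and Slc4a1 with Car1, a carbonic anhydrase of red cells, Rhd, an Rh blood group gene, and the beta globin genes Hbb-bs, Hbb-bt and Hbb-b2. The probes of these beta globin genes are not independent readings. Hbb-bs stood at 1.91 and 3.82 in ACKR4-positive cells against 7.46 and 1.32 in ACKR4-negative cells, the order of arrays seen for Alas2. Rhd stood at -4.73 and -3.23 against -0.64 and -7.04, the last value not above background. None of the 10 was called between the groups (adjusted p of 0.593 or more in limma). They were picked for this difference, so their values are a description.

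Other genes of the red cell were taken from 6 lists of 68 genes in all, of which 58 were above background on at least 1 array and 49 were tested. Called lower in ACKR4-positive cells were 8 of the 49 and called higher 0, where 3.72% and 1.92% of all tested genes were. With the block the counts were 11 and 4, where 8.55% and 6.75% were. The 49 had a median log2 fold change of -0.22 beside 0.04 for all tested genes. In sort 1 their median difference was -0.62 and in sort 2 it was 0.07. ACKR4-negative replicate 1 was the highest array for 31 of the 58, against 19.1% of all genes above background on any array.

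Among the globin chains, 0 of 5 tested genes were called, and 4 of the 5 were at least 2-fold lower in sort 1 and at least 2-fold higher in sort 2. Hbb-b1, a beta globin gene whose probe now maps to Hbb-bt, had levels of 0.83 and 3.30 in ACKR4-positive cells against 6.67 and 1.30 in ACKR4-negative cells. Adult alpha globin genes are near-identical to each other, and so are adult beta globin genes, so probes within either type are not independent readings. Ahsp, which encodes a chaperone of free alpha globin, stood at 2.92 on ACKR4-negative replicate 1 and was not above background on the other 3 arrays, at least 497-fold lower in ACKR4-positive cells in sort 1.

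Haem synthesis genes other than Alas2 did not share that pattern. All 11 were tested, and the median difference was -0.19 in sort 1 and 0.16 in sort 2. Fech, whose enzyme inserts iron into protoporphyrin to form haem, had levels of 1.62 and 1.79 in ACKR4-positive cells against 1.76 and 1.29 in ACKR4-negative cells. Neither Fech nor Alad nor the mitochondrial iron importer gene Slc25a37 was called (adjusted p = 0.874, 0.640 and 0.614). The 1 call was that of Alas1, the form of the first enzyme found in most tissues, which fell by 2.63 on the log2 scale (adjusted p = 0.0304).

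Membrane genes were split. Of 5 tested skeleton genes 1 was called lower, Epb41, which encodes protein 4.1 and is widely expressed, at -4.85 ± 0.41 (adjusted p = 0.0122). Ank1, which encodes an ankyrin that anchors the skeleton, and Epb42, which encodes protein 4.2, were above background on no array. Of 10 tested surface genes 2 were called lower, the water channel gene Aqp1 at -7.28 ± 0.35 (adjusted p = 0.00678) and the urea transporter gene Slc14a1 (adjusted p = 0.0136), both of which endothelial cells also express. Slc14a1 was above background on neither ACKR4-positive array, and was at least 11.8-fold lower in sort 1 and at least 11.5-fold lower in sort 2. Kel, of the Kell blood group, was above background only on ACKR4-negative replicate 1, at -2.84, and was at least 9.14-fold lower in ACKR4-positive cells of sort 1. Tfrc, the transferrin receptor gene, stood at -5.95 and -7.20 in ACKR4-positive cells, on neither array above background, against -2.65 and -5.14. It was at least 9.88-fold lower in sort 1 but only at least 1.12-fold lower in sort 2, and at least 3.33-fold lower by group means. Tfrc was not called (adjusted p = 0.283) except with the replicate block (adjusted p = 0.00797). With that block 3 membrane genes were also called higher, none of which was called without it. They were Mpp1, a palmitoylated membrane protein gene, at 1.42 ± 0.30 without the block (block adjusted p = 0.0148), the adhesion molecule gene Icam4 at 1.99 ± 0.49 (0.0434) and the glycophorin C gene Gypc at 0.99 ± 0.27 (0.0395).

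In all, 9 genes of these lists, among them Ahsp, Add2, Kel, Cldn13, Trim10, Klf1 and Myb, were above background on ACKR4-negative replicate 1 alone, as were 148 of 19165 genes above background on any array (0.772%). Klf1, the transcription factor that activates adult beta globin, was at -2.31 there, and Trim10, a gene of terminal red cell differentiation, at -2.36. Bpgm, which makes the bisphosphoglycerate that lowers the oxygen affinity of haemoglobin, was above background on all arrays and was not called (0.09 ± 0.58, adjusted p = 0.972). Hemgn, hemogen, was likewise not called (-0.43 ± 0.44, adjusted p = 0.772).

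Erythroid transcription factors included 3 called lower of 10 tested, and all 3 are shared with megakaryocytes. Gata1 stood at -5.88 and -7.17 in ACKR4-positive cells, above background on neither array, against 0.59 and 0.92 in ACKR4-negative cells, at least 81.2-fold lower (-7.28 ± 0.51, adjusted p = 0.00972). Nfe2, which controls platelet release, had levels of -7.88 and -4.63 against 1.61 and 2.51 (adjusted p = 0.0304), with ACKR4-positive replicate 1 not above background and at least 199-fold lower than its ACKR4-negative partner. Gfi1b was above background on neither ACKR4-positive array and was at least 33.8-fold lower in sort 1 and at least 13.9-fold lower in sort 2 (adjusted p = 0.00775). For these genes both ACKR4-negative arrays were high, and replicate 2 was above replicate 1 for Gata1 and Nfe2. Tal1, which endothelial cells also express, differed by 0.27 ± 0.28 and was not called (adjusted p = 0.780).

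Of 12 tested genes of erythropoietin receptor signalling 1 was called lower, the stem cell factor receptor gene Kit at -2.05 ± 0.28 (adjusted p = 0.0300). With the block 2 were called lower and 0 higher, where 8.55% and 6.75% of all tested genes were. The added gene was Cish, at -1.09 (block adjusted p = 0.0293 in limma). The list's median difference was -0.49 in sort 1 and -0.45 in sort 2, so it did not show the split between sorts of the globin chains. The genes Jak2, Stat5a and Stat5b of the kinase and factors that act below the receptor were not called, with log2 fold changes of 0.22, -0.44 and 0.14.

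**Figure D4:**
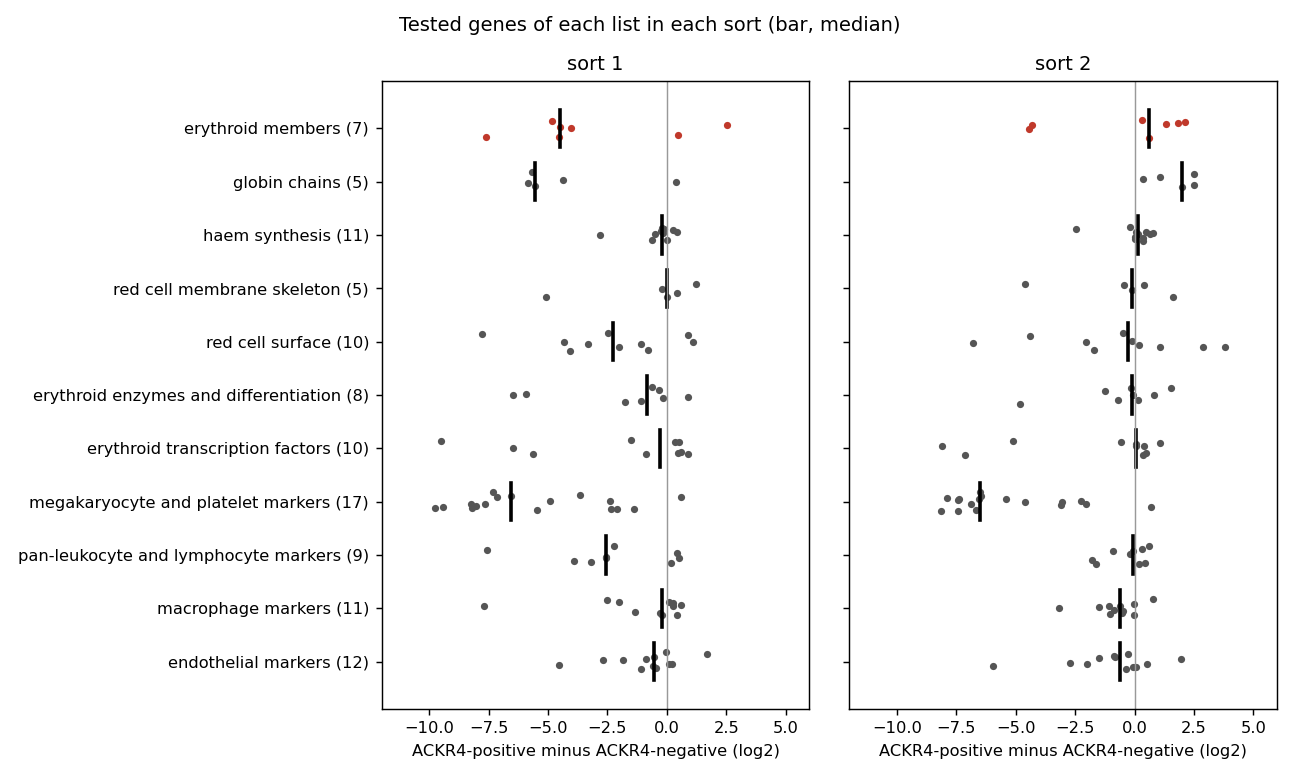
Differences of ACKR4-positive minus ACKR4-negative cells (log2, x axis) for the tested genes of each list (y axis, number tested in brackets), in sort 1 (left) and sort 2 (right), with 1 point per gene and the median as a bar. The 7 tested erythroid genes have medians of -4.51 and 0.60 and the globin chains of -5.56 and 2.01, while the platelet markers have -6.54 and -6.49.

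Markers of other cells were read beside these genes. Megakaryocyte and platelet markers were called lower in 13 of 17, with a summed signal, in multiples of the array's 75th percentile, of 4.70 and 6.91 on the ACKR4-positive arrays against 114 and 254 on the ACKR4-negative arrays. Itga2b, a chain of the platelet fibrinogen receptor, was above background on neither ACKR4-positive array, and it fell at least 143-fold (-8.18 ± 0.33, adjusted p = 0.00637). Pf4, a platelet chemokine gene, fell to -2.94 and -0.24 in ACKR4-positive cells, against 5.07 and 6.24 in ACKR4-negative cells (adjusted p = 0.0310). The platelet sum was thus larger on ACKR4-negative replicate 2, while the summed signal of the 8 erythroid genes was 17.8 and 60.6 on the ACKR4-positive arrays against 384 and 27.3 on the ACKR4-negative arrays, most of it from Hba-a1. Leukocyte and lymphocyte markers summed to 1.30 and 5.04 against 4.57 and 6.55, and Ptprc, which encodes CD45, was above background on ACKR4-positive replicate 2 only, at -4.33. Of the 9 tested genes of that list 1 was called lower in ACKR4-positive cells, Lck (-2.00, adjusted p = 0.0419 in limma), and 0 higher. Their median log2 fold change was -1.34, and this list also differed between sorts, with median differences of -2.55 in sort 1 and -0.09 in sort 2. Macrophage markers summed to 38.6 and 47.1 against 29.0 and 33.1, most of it from Vcam1, an adhesion molecule gene that endothelium also expresses, at 5.15 and 5.47 against 4.57 and 4.71. The median log2 fold change of the 11 tested macrophage markers was -0.27, and 0 were called (with the block 4 lower and 0 higher). Granulocyte markers summed to 1.94 and 3.38 against 2.58 and 4.75, and endothelial markers to 312 and 315 against 525 and 533. Of the 12 tested endothelial markers 3 were called lower in ACKR4-positive cells, Kdr, Emcn and Esam, and 0 higher. Over all tested genes 3.72% were called lower and 1.92% higher. The median log2 fold change of the 12 was -0.56, and with the block 4 were called lower and 1 higher. In such pooled RNA, fewer cells of a type and less RNA per cell cannot be told apart. The part of platelets or leukocytes in the values of Epor and Car2 was not tested.

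The genes with the most similar pattern over the 4 arrays were found by the root mean square difference of levels, each centred on its own mean, among 14128 named genes above background on at least 1 array. For Epor they were Msx1 (0.048) and Prss23 (0.074), and for Car2 Dkk2 (0.36) and Itih5 (0.42). For Alas2 they were the beta globin genes Hbb-bs (0.30) and Hbb-b2 (0.38), for Hba-a1 they were Hba-a2 (0.14) and Rhag (0.30), and for Rhag they were Hba-a2 (0.24) and Hba-a1 (0.30). Slc4a1 was nearest to Ifi44l (0.19) and Kel (0.26), Sptb to Egr4 (0.23) and Negr1 (0.23), and the brightest Ermap probe to Zfp110 (0.011) and Gfod2 (0.013). Rhag, Kel and Ifi44l on 3 arrays, and Dkk2 and Itih5 on both ACKR4-positive arrays, lie below the lowest level that was above background there, and take part of their pattern from background signal. The same holds for Sptb, Egr4 and Negr1 on ACKR4-negative replicate 2 and for Epor on ACKR4-positive replicate 2.

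Promoters are shown for Alas2 and Hba-a1, whose differences had opposite signs in the 2 sorts, and for Epor, which was lower in both. The 250 bases before the start of each gene are from RefSeq (GRCm38.p6), and 6 of the 8 genes had a promoter in that table. Capitals mark GATAA, the core that GATA factors bind, and CACCC, the core that KLF factors bind, on either strand (read as TTATC and GGGTG on the other strand), and the motifs did not overlap each other in these windows.
Alas2 promoter, chrX:150547167-150547416 (plus strand): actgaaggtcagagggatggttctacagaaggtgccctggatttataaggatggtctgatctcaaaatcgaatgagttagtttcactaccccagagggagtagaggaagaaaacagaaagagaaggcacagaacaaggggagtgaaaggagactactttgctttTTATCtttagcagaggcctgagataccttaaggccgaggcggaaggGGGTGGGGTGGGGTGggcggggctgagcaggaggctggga
Hba-a1 promoter, chr11:32283422-32283671 (plus strand): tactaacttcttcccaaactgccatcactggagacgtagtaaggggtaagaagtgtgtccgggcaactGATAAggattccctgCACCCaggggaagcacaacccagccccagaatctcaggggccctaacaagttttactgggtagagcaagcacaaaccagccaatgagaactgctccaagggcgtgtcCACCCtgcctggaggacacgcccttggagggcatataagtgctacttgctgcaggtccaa
Epor promoter, chr9:21963577-21963826 (minus strand): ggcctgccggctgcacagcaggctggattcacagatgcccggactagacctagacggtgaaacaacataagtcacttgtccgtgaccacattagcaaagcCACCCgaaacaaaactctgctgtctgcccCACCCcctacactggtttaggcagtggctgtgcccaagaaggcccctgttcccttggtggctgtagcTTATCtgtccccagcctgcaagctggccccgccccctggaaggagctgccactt
Over windows of 300 bases, which include 50 bases after the start, GATAA was found in 5 of the 6 genes and in 25.4% of 32851 promoters, and CACCC in 6 of the 6 and in 57.5%. Both were found in 5 of the 6, all but Sptb, and in 12.6% of promoters. Epor held both, as did Alas2 and Hba-a1, so these letters do not separate the 2 patterns, and a match is a description and not a site.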

How the data were processed

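RNA from 4 samples (6 to 20 ng each) was measured on 1-colour Agilent arrays with 162570 spots. Per the file headers, the authors made the spot intensity with Agilent Feature Extraction 10.7.3.1 as a background-subtracted signal, detrended within the array, using surrogate values for the dimmest spots, and not scaled between arrays. The deposited table, on a linear intensity scale with a lowest value of 15 and a 75th percentile near 1500 on every array, served as an alternative (how it was made is not given in the sources used here).

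Spots flagged as non-uniform or population outliers were left out, and log2 signals of a probe's other spots were averaged and centred on the array's 75th percentile. Of a gene's tested probes the brightest was used. Probes were named by accession (27508), current symbol (3544), another probe (167) or the file (8210). The groups were compared by limma 3.58.1 in R 4.3.3 (lmFit and eBayes, 2-sided, Benjamini-Hochberg over all tested genes). The fit was tested on simulated data. The simulated arrays were independent and held no difference between sorts, so that test does not cover such differences. Figures used Python 3.11.15 and matplotlib 3.10.9. The number of arrays limits the precision, and replicates are pools of mice from separate sorts.

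Replicate numbers pair the groups, because same-numbered arrays of both groups carry 1 mouse number in their titles and the design describes 2 independent sorts, so each number was taken as 1 sort, which no label states outright. The replicate 1 minus replicate 2 differences of the 2 groups correlated at r = 0.60 over 17358 genes, which are not independent replicates.

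The members and lists were chosen with earlier results of these data known. Named genes were the 8 members, genes picked for their function, and for each member the 2 nearest genes. Vcam1, genes that complete a count of calls, those above background on 1 array and those 16-fold apart between ACKR4-negative arrays were named after their values were seen. Some genes of the lists are not reported here by name. Alternatives covered background correction, scaling, filters, probes, flagged spots, a floor, a trended prior, a replicate block and each array left out.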

Additional observations from a re-analysis of the deposited data

Results flagged for a closer look

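The difference between ACKR4-positive and ACKR4-negative cells had opposite directions in the 2 sorts for Alas2 and Hba-a1, by at least 2-fold in each sort. For Alas2 the value of sort 1 minus that of sort 2 was -6.91 on the log2 scale, and for Hba-a1 it was -5.82. Each sort has 1 array per group, so the difference between sorts was not tested. ACKR4-negative replicate 1, the array with the highest level of both genes, also had the lowest spike-in signal of the 4 arrays (837), whose part in these values was not tested.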

How the results depend on the processing

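The count of 978 genes called (333 higher, 645 lower in ACKR4-positive cells) was 2655 with sort as a replicate block, 441 with only probes above background on all 4 arrays, and 387 to 892 when 1 array was left out, with 511 without ACKR4-positive replicate 1, 387 without ACKR4-negative replicate 1 and 448 without ACKR4-negative replicate 2. With the block 1171 were higher and 1484 lower. The 2 erythroid genes called lower were 1 with the filter on all 4 arrays, which leaves out Epor, and 1 to 3 when 1 array was left out. They were 2 with the block, which changed no call of the 8 genes except that of Sptb. Without ACKR4-negative replicate 1 the pooled differences of Alas2, Slc4a1 and Hba-a1 changed sign, to 1.42, 0.35 and 0.38, none of them called (adjusted p of 0.668 or more). Without ACKR4-negative replicate 2 they were -4.14, -4.28 and -3.57, and Slc4a1 alone was called (adjusted p = 0.0347). Epor was called in all 16 settings that tested it (-4.28 to -2.32) and Car2 in 16 of 17. The median of the 8 genes lay between -4.51 and -3.12 in sort 1 and between 0.32 and 0.81 in sort 2, including settings chosen after seeing the data (the other Ermap probes, and Rhag left out). Signal near background limits Epor, Rhag, Sptb and 2 Ermap probes.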

Other observations

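Of the 10 genes that were at least 16-fold higher on ACKR4-negative replicate 1 than on ACKR4-negative replicate 2, 3 are in no erythroid list. Madcam1, an adhesion molecule known from the cells that line the marginal sinus of the spleen, had levels of -3.71 and -3.95 in ACKR4-positive cells against 1.03 and -3.70 in ACKR4-negative cells. It was not called between the groups (adjusted p = 0.593). Zdhhc22, of a family of palmitoyl transferases, had levels of -3.85 and -2.76 against 0.28 and -4.13. The third is a probe without a gene symbol. These genes were chosen after their values were seen.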
